A study of Drosophila melanogaster with 3 samples.

Results

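The 32 genes described here encode the proteins with which the endoplasmic reticulum (ER) imports, folds, glycosylates and inspects new proteins, together with the sensors and transcription factors of the unfolded protein response. They were chosen by function, as a list of 33 names, and not by their measured values, though earlier results of these data were known. *OstStt3* and *Stt3B* in that list were 2 names of 1 gene (FBgn0011336), which left 32 of the 17768 genes in the deposited tables. All 32 were present in adult nephrocytes, at mean levels from 11.1 TPM for *Sil1* to 845 TPM for *Calr*. TPM, RSEM's measure of a gene's share of all transcripts scaled to a fixed total in each library, is corrected for transcript length, so that levels can be set side by side between genes.

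Nephrocytes are the filtering cells of the fly, attached to the heart tube, and take up protein from the hemolymph. The libraries came from adult females aged 4 days, kept at 25 °C on food with 6% sucrose, which carried *Hand*-GFP together with *Klf15*-Gal4, UAS-RFP over the CyO balancer. *Klf15*-Gal4, made from a *Klf15* promoter fragment, drives RFP in nephrocytes, *Hand*-GFP marks the heart and nephrocytes, and large cells with both signals were sorted by flow cytometry from 200 pooled flies per replicate, with 100 to 200 nephrocytes per the series text. There were 3 libraries, all of this single control condition and all carrying the same transgenes, so no groups could be compared. In bulk RNA of this kind, fewer cells of a type and less RNA per cell cannot be told apart.

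Secreted and membrane proteins enter the ER through the Sec61 channel, where oligosaccharyltransferase attaches a glycan to many of them. Lumenal Hsp70 and Hsp90 chaperones, lectins that read the glycan and enzymes that form disulfide bonds then help the chain to fold. Chains that fail are drawn back to the cytosol and degraded by the proteasome, which is called ER-associated degradation (ERAD). When unfolded protein builds up, the sensors Ire1, PEK and Atf6 raise folding capacity through the transcription factors Xbp1 and crc and lower the load of new protein. Cells with heavy membrane traffic and large surface receptors, such as nephrocytes, depend on this route for every receptor they display.

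Expected counts, the reads that RSEM assigns to a gene, summed to 8801238, 7808930 and 8797916 in libraries 1, 2 and 3. The 32 genes held 0.974%, 1.17% and 1.12% of them, and no member had fewer than 94 counts in any library. The 7 nephrocyte markers were all at 1 TPM or more in every library, led by *Amnionless* at 5794 ± 591 TPM and *Hand* at 4697 ± 459 TPM (SD, n = 3 libraries). All 10 muscle and heart genes also reached 1 TPM, with summed levels of 5645, 3015 and 9449 TPM in libraries 1, 2 and 3, led by *Mlc2* and *Mlc1*. Of 8 hemocyte genes 3 reached it, led by *crq* and *srp*, while *Hml* and *Pxn* were at or below 0.03 TPM. Of 7 fat body genes only *Obp99b* did, at 8.73, 12.8 and 299 TPM in libraries 1, 2 and 3, so that library 3 stood apart, followed in level by *Yp3*, with *Lsp2* and *Fbp1* at 0 counts. In library 2 long transcripts were low (Spearman's rho between length and the ratio of library 2 to the other libraries of -0.552 across 7193 genes, which are not independent replicates).

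All 32 genes reached 1 TPM in each of the 3 libraries, where 40.5% of all 17768 listed genes did so. At 10 TPM in every library 30 of the 32 remained, against 25.4% of listed genes, and those lost were *Sil1* and *Edem1*. A mean of 100 TPM or more was reached by 21 of the 32, against 6.75% of listed genes and 16.7% of the genes detected at 1 TPM. The median of the 32 means was 127 TPM, and the median over all 7193 detected genes was 20.9 TPM. Together the 32 genes made up 5748, 6704 and 6776 TPM in libraries 1, 2 and 3, or 6409 ± 574 TPM (SD, n = 3), which is 0.641% of all transcripts. The coefficient of variation of a member over the 3 libraries ran from 5.96% for *Cnx99A* to 36.1% for *Sec61gamma*, with a median of 19.5%.

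**Figure D1:**
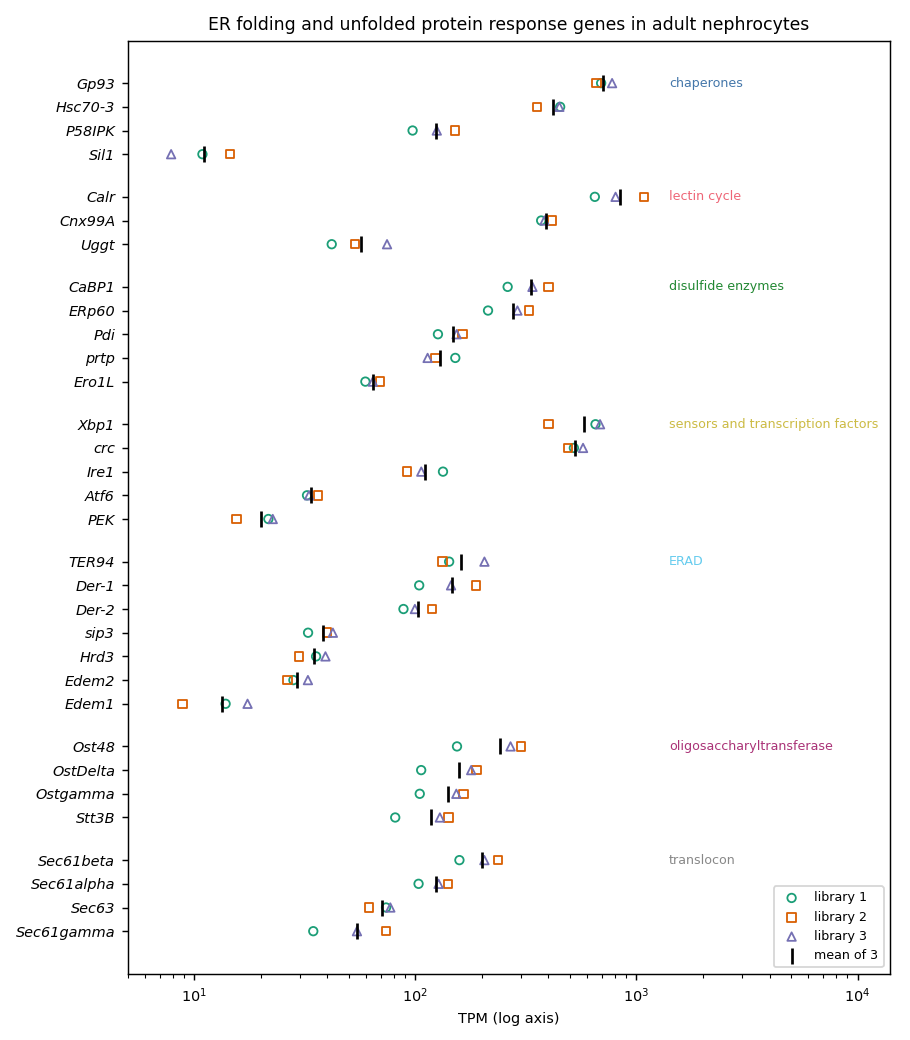
TPM of the 32 genes on a log axis, grouped by role and ordered by mean within a role. Open symbols are libraries 1, 2 and 3 and the black tick is their mean; *Calr*, *Gp93*, *Xbp1* and *crc* lie furthest right, with means from 528 to 845 TPM, and *Sil1* and *Edem1* lie furthest left.

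The order of the levels was not fixed between near neighbours. Of the 31 pairs of neighbours in that order, 10 kept their order in all 3 libraries and 21 did not. *Calr* exceeded *Gp93* in 2 of 3 libraries, with a log2 ratio of 0.22 ± 0.43 (SD, n = 3). Neighbours from *TER94* at 160 TPM down to *Der-2* at 102 TPM, a run of 11 genes, never kept 1 order in all 3 libraries. Clear steps in TPM were those from *crc* to *Hsc70-3* (log2 ratio 0.34 ± 0.13) and from *CaBP1* to *ERp60* (0.27 ± 0.04). So were those from *Edem2* to *PEK* (0.56 ± 0.20) and from *PEK* to *Edem1* (0.61 ± 0.22) (SD, n = 3 for each). The step from *crc* to *Hsc70-3* depended on the length correction, as *crc* had fewer counts in every library (6734 against 9597 in library 1).

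The lumenal chaperones were led by *Gp93*, which encodes the Hsp90 of the ER. *Gp93* (FBgn0039562, chromosome 3R from 27948711 to 27952151 in the BDGP6.54 annotation) was at 692, 659 and 776 TPM in libraries 1, 2 and 3, among the least variable members. *Hsc70-3* (FBgn0001218, chromosome X from 11801696 to 11807117) encodes BiP, the Hsp70 of the ER that binds exposed hydrophobic stretches and holds the sensors inactive. It was at 452, 356 and 448 TPM, lowest in library 2. *P58IPK*, a DnaJ co-chaperone of BiP, was at 97.2, 151 and 125 TPM. *Sil1*, whose yeast and mammalian counterparts release ADP from BiP, was the lowest of all members at 10.9, 14.5 and 7.86 TPM, supported by 131, 173 and 94 counts.

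BiP transcripts were fewer than those of its Hsp90 partner. The ratio of *Hsc70-3* to *Gp93* was 0.653, 0.539 and 0.577 in libraries 1, 2 and 3, which gave -0.77 ± 0.14 on the log2 scale (SD, n = 3), below 0 in 3 of 3 libraries. Both ER chaperones stood below their cytosolic counterparts in every library. *Hsc70-3* was at 0.177, 0.229 and 0.195 of *Hsc70-4*, the constitutive cytosolic Hsp70, which had 2133 ± 522 TPM. *Gp93* was at 0.383, 0.391 and 0.545 of *Hsp83*, the cytosolic Hsp90, which had 1639 ± 196 TPM (SD, n = 3). Between the co-chaperones, *P58IPK* exceeded *Sil1* 8.92-fold, 10.4-fold and 15.9-fold.

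The ratios of 20 pairs of partners, these 4 included, were each tested against 1 by flipping the signs of the log2 ratios (two-sided exact permutation test). With 3 libraries the exact test cannot go below p = 0.25, so no pair could pass a threshold of 0.05. The exact p was 0.25 for the 16 pairs that had 1 direction in all 3 libraries (adjusted p = 0.312 by Benjamini-Hochberg over 20 pairs), and those same 16 had a mean log2 ratio larger than its SD between libraries. The other 4 pairs, *Pdi* over *prtp*, *Xbp1* over *crc*, *sip3* over *Hrd3* and *Stt3A* over *Stt3B*, changed direction between libraries and gave exact p of 0.5 or 0.75 (adjusted p up to 0.75).

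**Figure D2:**
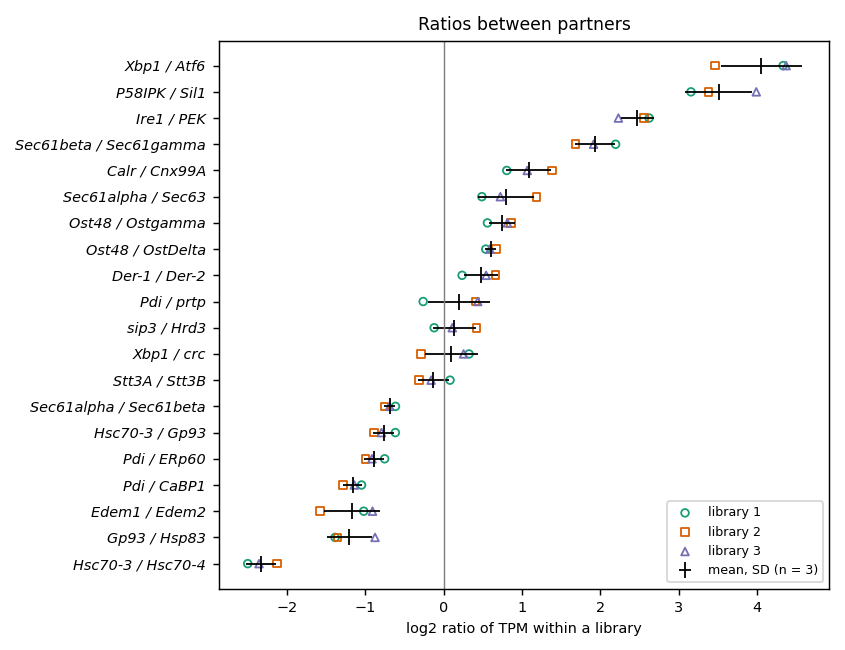
Log2 ratio of TPM within each library for 20 pairs of partners, the gene named before the slash over the gene after it. Open symbols are libraries, the tick and bar are the mean and SD (n = 3); 16 pairs lie on 1 side of 0 in all libraries and 4 pairs cross it.

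*Calr* and *Cnx99A* encode the lectins calreticulin and calnexin, which hold glycoproteins that carry a single glucose. *Calr* (FBgn0005585, chromosome 3R from 9628691 to 9630851), the soluble lectin, was at 648, 1083 and 805 TPM, and ranked 202nd by mean among all listed genes. *Cnx99A*, the membrane-bound lectin, was at 371, 416 and 384 TPM. It had the lowest coefficient of variation of the members, 5.96%, close to 6.15% for *Atf6*. *Calr* therefore exceeded *Cnx99A* by an amount that depended on the library, 1.75-fold, 2.60-fold and 2.10-fold. The excess depended on the length correction, since the log2 ratio of 1.09 in TPM was 0.18 in CPM, and in library 1 *Calr* had 5875 counts and *Cnx99A* 6299. *Uggt*, the folding sensor that adds the glucose back to misfolded glycoproteins, was far lower at 41.9, 53.3 and 74.5 TPM. It also had the longest transcript of the list, at 5316 bases.

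Disulfide enzymes were led by *CaBP1*, a protein disulfide isomerase of the type called PDIA6 in mammals. *CaBP1* was at 261, 399.6 and 339 TPM in libraries 1, 2 and 3. *ERp60*, whose mammalian counterpart PDIA3 works with the calnexin and calreticulin lectins, was at 213, 327 and 290 TPM. *Pdi*, the classical isomerase, was lower than both in every library, at 127, 164 and 154 TPM. The ratio of *Pdi* to *ERp60* was 0.594, 0.501 and 0.531 and that of *Pdi* to *CaBP1* was 0.484, 0.410 and 0.454. *prtp* encodes a thioredoxin-domain protein of the ER that is also known as a ligand of the engulfment receptor Draper. It was at 152, 123 and 114 TPM, and was the only one of the 5 enzymes that was highest in library 1. *Ero1L*, the oxidase that recharges Pdi, was at 59.4, 69.2 and 64.2 TPM, a narrow range.

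The 4 oligosaccharyltransferase subunits lay close together and moved together. *Ost48* was at 154, 301 and 269 TPM in libraries 1, 2 and 3. *OstDelta*, the ribophorin II subunit, was at 106, 189 and 179 TPM, and *Ostgamma*, related to the mammalian oxidoreductase subunits TUSC3 and MAGT1, was at 105, 165 and 153 TPM. *Stt3B*, a catalytic subunit that transfers the glycan, was at 81.1, 141 and 129 TPM. Each subunit was lowest in library 1 and highest in library 2, an order shown by 17.6% of detected genes. They were 1.58-fold to 1.95-fold higher in library 2, and 1.46-fold to 1.75-fold higher in library 3, than in library 1. The ratio of *Ost48* to *OstDelta* varied far less than either gene, at 1.45, 1.59 and 1.51, with an SD on the log2 scale of 0.067 against 0.516 for *Ost48* and 0.458 for *OstDelta*. This was the smallest SD among the 20 pairs, and in 9 of the 20 the ratio varied less than both of its genes. The other catalytic subunit, *Stt3A*, was outside the list and was added after its values could be seen, because the list named *Stt3B* under both of its names. *Stt3A* was at 85.8, 113 and 116 TPM, lowest in library 1 but highest in library 3, unlike the 4 listed subunits. Its ratio to *Stt3B* of 1.06, 0.802 and 0.896 did not keep a direction.

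Among the channel genes, *Sec61beta* was at 158, 237 and 205 TPM, *Sec61alpha*, the pore itself, at 103, 140 and 127 TPM, and *Sec61gamma* at 34.5, 73.7 and 54.4 TPM. The proteins assemble as 1 copy of each, and their transcripts were not equal. *Sec61alpha* was at 0.653, 0.593 and 0.621 of *Sec61beta* in libraries 1, 2 and 3, which gave -0.69 ± 0.07 on the log2 scale (SD, n = 3). *Sec61beta* exceeded *Sec61gamma* 4.58-fold, 3.21-fold and 3.77-fold. *Sec61beta* and *Sec61gamma* have the shortest transcripts of the list, at 792 and 705 bases, so their TPM depends most on the length correction. *Sec63*, which couples the channel to BiP, was at 73.7, 61.7 and 77.1 TPM, lowest in library 2, where the Sec61 subunits were highest. This difference was not kept once the trend on transcript length was removed, as the log2 ratio of *Sec63* in library 2 to the other libraries turned from -0.29 to 0.11.

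In TPM, ERAD genes fell into an abundant and a scarce set. *TER94*, the p97 ATPase that pulls proteins out of the membrane, was at 142, 133 and 205 TPM. *Der-1* and *Der-2*, the derlins of the exit channel, were at 104, 189 and 145 TPM and at 88.4, 119 and 99.5 TPM. Their place in the abundant set depended on the length correction. In library 1 they had 692 and 768 counts, against 817 for *Edem2*, and in library 2 they had 1243 and 1026, against 761. The membrane ubiquitin ligase was lower. *sip3*, the Hrd1 ligase, was at 32.7, 39.9 and 42.4 TPM and its partner *Hrd3* at 35.6, 29.8 and 39.2 TPM, so that their order changed between libraries. *Edem2* and *Edem1* encode the mannosidase-like proteins that mark glycoproteins for disposal. *Edem2* was at 28.1, 26.4 and 32.7 TPM and *Edem1* at 13.9, 8.83 and 17.4 TPM. *Edem1* was at 0.493, 0.334 and 0.533 of *Edem2*.

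In TPM, the transcription factors *Xbp1* and *crc* were far more abundant than the sensors of the response. *Xbp1* (FBgn0021872, chromosome 2R from 21143545 to 21145750) was at 653, 401 and 685 TPM, and *crc* (FBgn0000370, chromosome 2L from 21310866 to 21319527), the fly ATF4, at 521, 490 and 573 TPM. They ranked 281st and 310th among the 17768 listed genes, next to the main chaperones. Their order changed between libraries, with a log2 ratio of *Xbp1* to *crc* of 0.10 ± 0.34 (SD, n = 3), as *Xbp1* was lowest in library 2. *Ire1*, the kinase and RNase that splices *Xbp1* mRNA, was at 133, 91.4 and 106 TPM. In counts its distance from both factors was smaller, with 3829 for *Ire1* against 9307 for *Xbp1* and 6734 for *crc* in library 1. *PEK*, the kinase that phosphorylates the initiation factor eIF2alpha, was at 21.6, 15.5 and 22.7 TPM, and *Ire1* exceeded it 6.16-fold, 5.89-fold and 4.70-fold. *Atf6*, a membrane-bound factor freed by cleavage, was at 32.4, 36.3 and 33.04 TPM. The tables give 1 value per gene, so spliced and unspliced *Xbp1* mRNA cannot be told apart, and whether the response was active was not measured.

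The rest of the pathway, 54 genes in 6 lists, was present almost throughout, with 53 at 1 TPM or more in every library, against 40.5% of listed genes. The exception was *wbl*, a PDI-related gene known for its role in the ovary. It had 0 counts in every library, and 3 counts would correspond to 0.443, 0.447 and 0.447 TPM in libraries 1, 2 and 3. Of these 54 genes, 20 had a mean of 100 TPM or more, against 6.75% of listed and 16.7% of detected genes. The median level was 37.7 TPM for the 8 genes of the signal recognition particle and its receptor, led by *Srp54k* at 47.7 ± 2.54 TPM and *Srp19* at 43.1 ± 4.81 TPM (SD, n = 3). It was 125 TPM for 8 genes of the signal peptidase and the partners of the channel, with *Spase12* at 263 ± 59.1 and *twr* at 201 ± 64.1 TPM (SD, n = 3).

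Among 8 glycan enzymes the median was 105 TPM. *Dad1* and *CG33303*, further oligosaccharyltransferase subunits, led them at 349 ± 88.7 and 285 ± 81.0 TPM (SD, n = 3). Both were lowest in library 1 and highest in library 2, as were the 4 listed subunits above but not *Stt3A*. Of the 10 other ER folding genes, *Manf*, a lumenal protein that is induced by ER stress in mammals, was at 485, 790 and 654 TPM, and *CG2852*, a cyclophilin, at 367, 627 and 464 TPM. The list of 9 other ERAD genes had a median of 53.1 TPM, led by *Ufd1*, a cofactor of the p97 ATPase, at 215 ± 27.6 TPM. *Ubc6* (FBgn0004436) followed at 192 ± 12.9 TPM (SD, n = 3 for both). *Ubc6* was listed by its symbol, and whether this fly gene acts in ERAD was not tested. Its place in this list is therefore uncertain, and the list median and the counts over 54 pathway genes include it. The 11 signalling genes had a median of 55.3 TPM but included *Xrp1*, a stress-responsive bZIP transcription factor, at 1214, 805 and 1073 TPM. Its mean of 1030 TPM exceeded that of each of the 32 genes, although *Calr* was higher in library 2. *Thor*, the translation repressor 4E-BP and a known target of crc, was at 271, 670 and 602 TPM, lowest in library 1.

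**Figure D3:**
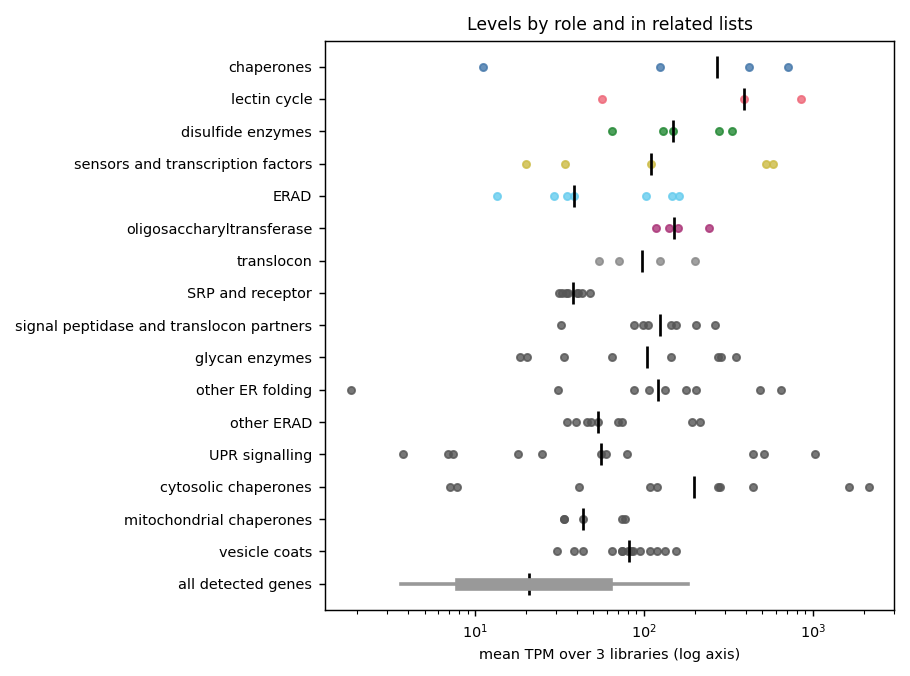
Mean TPM over 3 libraries on a log axis for each gene (dots) of the 7 roles, of 6 further lists of the pathway and of 3 lists from outside the ER, with the median of each list as a black tick (*wbl*, at 0, is not drawn). The bottom bar gives all 7193 detected genes, with 50% of them between 8.23 and 59.7 TPM (thick) and the middle 80% ending at 3.61 and 182 TPM (thin); the median of each of the 7 roles lies right of the median of all detected genes, 20.9 TPM.

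The order of the libraries, which was picked out after the members' values were seen, is given here as a description. Of the 32, 19 were lowest in library 1, where 37.8% of detected genes were, and 18 were highest in library 2, where 24.8% of detected genes were. Both held for 17 of the 32, with 17.6% of detected genes showing that order. Once each library's trend on transcript length was removed it held for 18 of the 32, against 20.4%, but not for the same genes, as 13 were shared. *Cnx99A*, *Ero1L*, *Der-2* and *Atf6* left it and *Gp93*, *Uggt*, *sip3*, *Hrd3* and *Edem2* joined it. Among all detected genes under 1500 bases the share was 30.4%. The 17 without that adjustment were all 4 oligosaccharyltransferase subunits, all 3 Sec61 subunits, 4 of 5 disulfide enzymes, 2 of 3 lectin-cycle genes, *P58IPK*, both derlins and *Atf6*. The genes are not independent of one another and the 3 libraries share 1 condition, so these counts describe the libraries. Lowest in library 2 were 11 of the 32, against 48.4% of detected genes. They were *Gp93*, *Hsc70-3*, *Xbp1*, *crc*, *Ire1*, *PEK*, *TER94*, *Hrd3*, *Edem1*, *Edem2* and *Sec63*. With the trend on length removed only *Xbp1*, *crc* and *Edem1*, 3 of the 32, were lowest in library 2 (35.7% of detected genes), and 7 of the 11, all but these and *TER94*, were highest there. Of the remaining extremes, 11 of the 32 were highest in library 3 (52.3% of detected genes), 3 were highest in library 1 (22.9%), namely *Hsc70-3*, *prtp* and *Ire1*, and 2 were lowest in library 3 (13.8%), namely *Sil1* and *prtp*.

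**Figure D4:**
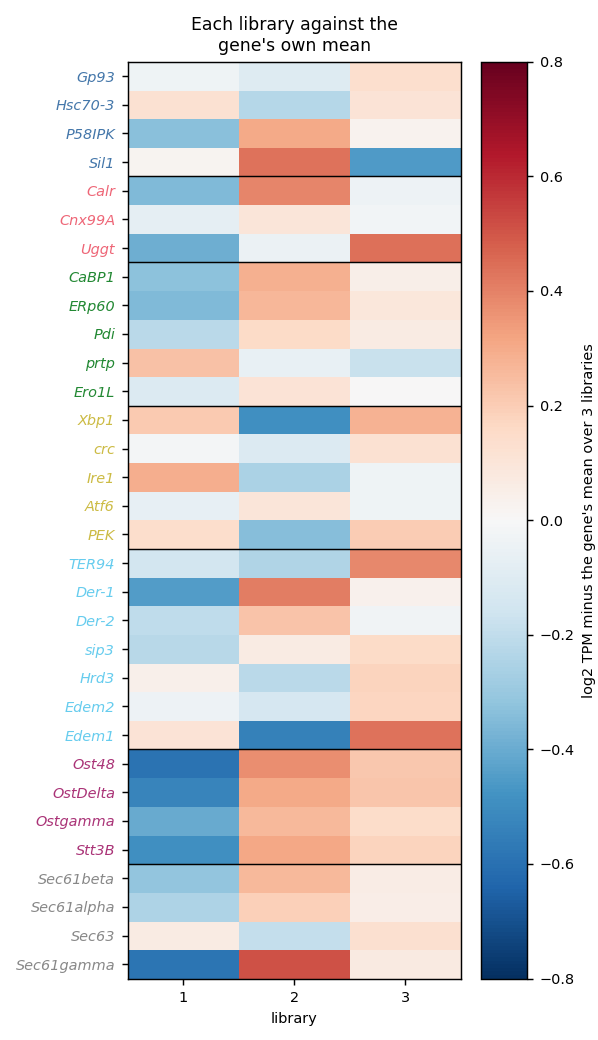
Difference of each library's log2 TPM from the gene's own mean over 3 libraries (red above, blue below), with gene names coloured and lines drawn by role. The block of oligosaccharyltransferase genes is blue in library 1 and red in libraries 2 and 3, and *Xbp1*, *Ire1* and *PEK* are blue in library 2 (no length adjustment is drawn, under which *Ire1* and *PEK* were highest in library 2).

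Library 2 was set against the mean of libraries 1 and 3 because earlier results of these data had singled it out. The median log2 ratio was 0.16 for the 32 genes and -0.14 for all detected genes, and 19 of the 32 were higher in library 2, where 37.5% of detected genes were. By role the median was 0.42 for oligosaccharyltransferase, 0.33 for the translocon, 0.22 for disulfide enzymes, 0.15 for chaperones, 0.14 for the lectin cycle, -0.20 for ERAD and -0.39 for sensors and transcription factors. Transcript length moved with these values. The median was 0.48 for the 6 members under 1500 bases, against 0.10 for all detected genes of that length. It was 0.28 for 13 members from 1500 up to 2500 bases, against -0.10, and -0.29 for 13 longer members, against -0.62. With each library's trend on length removed the median was 0.38 for the 32 genes, against -0.003 for all detected genes, and 28 of the 32 were above 0, the exceptions being *Xbp1*, *Edem1*, *crc* and *prtp*. In that setting the role medians for sensors and for ERAD turned to 0.29 and 0.30. *Xbp1* stayed low in library 2, at -0.74 without and -0.60 with the adjustment, as did *Edem1* at -0.82 and -0.23. Muscle and heart genes had a median of -1.11 in library 2 in both settings, and their part in the values of the 32 genes was not tested.

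**Figure D5:**
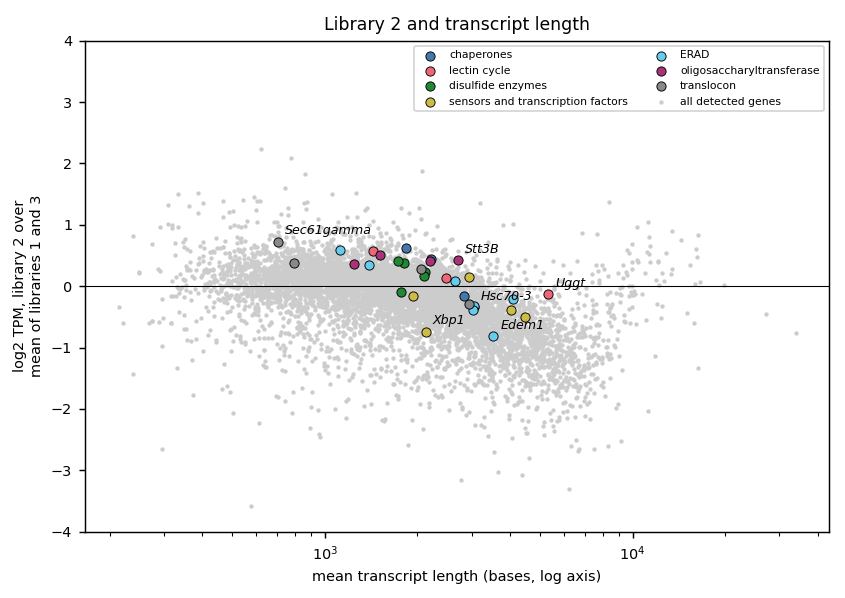
Log2 ratio of TPM in library 2 to the mean of libraries 1 and 3 (0.1 TPM added) against transcript length on a log axis. Large dots are the 32 genes coloured by role and small grey dots all 7193 detected genes; the grey cloud bends down above about 2500 bases, and most of the 32 genes lie in its upper part, with *Xbp1* and *Edem1* as low points.

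Some members share exon bases with a neighbouring gene, and whether counting used strand is not given in the sources used here. In the BDGP6.54 annotation 15 of the 32 overlap an exon of another gene, 11 of them by at least 100 bases. The largest overlaps were 2515 bases of *crc* with *CG46314* on the same strand and 1787 bases of *Sec63* with an antisense RNA at 1.56 TPM. *Ire1* shares 496 bases with *MICU3* on the other strand, which was at 56.2 TPM. The expected counts of *Ire1*, *crc*, *Pdi*, *Hrd3* and *Sec63* were fractional in each of the 3 libraries, as RSEM writes where reads are shared between genes, and the levels of these 5 are less certain.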

How the data were processed

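RNA of sorted adult nephrocytes was amplified with a low-input cDNA kit and sequenced as 3 libraries. Alignment was by STAR 2.7.5c and quantification by RSEM 1.3.3, with FlyBase annotation 6.28 (BDGP Release 6). For read length, filters and strand, no setting is given in the sources used here. Expected counts, deposited without normalization, are estimated reads per gene, and 8.27% to 8.43% per library were not whole within 0.005. TPM and FPKM, likewise deposited from RSEM by the authors, are relative to transcript length and library size. TPM was used as deposited, and FPKM only as an alternative. The other columns hold transcript lengths.

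Members and lists were chosen with earlier results of these data known. A table of gene names gave a symbol for 17671 of 17768 gene IDs, and all 148 list entries (147 genes) were found, 11 of them under a synonym or another spelling. Coordinates are from BDGP6.54 (Ensembl), the same assembly release. Sequences were not used here.

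A gene was called detected at 1 TPM in every library. Ratios of 20 pairs (19 fixed and 1 added after the values were seen) were taken within a library without a pseudocount and tested by exact permutation of signs. Library 2 was compared after adding 0.1 TPM. The trend on length was a lowess fit (fraction 0.3) in each library. Ranks are of mean TPM. Alternatives used CPM of expected counts, TMM factors from edgeR 4.0.16 and size factors from DESeq2 1.42.0. The library 2 ratio and the removal of the trend on length were tested on simulated data. Those data had a straight trend on log length and shifts of single genes. List medians and orders of libraries were not simulated. Counts are of amplified cDNA, so limits cover counting error only. The genes named are all 32 members, the genes of the pairs, the 2 highest of each other list and genes not detected there. *Stt3A*, *Hml*, *Pxn*, *Lsp2*, *Fbp1* and the genes of overlapping exons were named after their values were seen, as were those said to be so in the closing section. Computations used Python 3.11.15 with statsmodels 0.14.6, pandas 2.3.3, numpy 2.4.6 and matplotlib 3.10.9, and R 4.3.3.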

Additional observations from a re-analysis of the deposited data

How the results depend on the processing

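No paired analysis was possible because the series holds 1 group. All 32 genes stayed detected at 5 TPM, and 30 at 10 TPM. At 0.5 TPM and without any replicate none could be lost, given the rule of 1 TPM in every library. Nor could any be lost at 10 expected counts, as the lowest count of a member was 94. Without 155 genes of the mitochondrial genome and ribosomal RNA the summed level was 7495 TPM and the median member 149 TPM, since fewer genes then share the fixed total. Without the 11 members whose exons overlap another gene by 100 bases or more, an alternative chosen after seeing the data, the sum was 4298 TPM. TMM, DESeq2 and FPKM scaling left the sum between 6398 and 6418 TPM. Of 120 values of pair ratios under alternatives, 115 kept their direction, but many of them could not have turned. A pseudocount cannot change which gene of a pair is higher in a library. Leaving out a replicate cannot turn a pair with 1 direction in every library. The 5 that reversed came from CPM and from leaving out a replicate. In CPM, which is not per length, the log2 ratio was -0.024 for *Ost48* over *OstDelta*, 1.04 for *Sec61alpha* over *Sec61beta* and -0.085 for *sip3* over *Hrd3*, and 13 of the 19 fixed pairs had 1 direction in every library, against 16 in TPM. Of those 16, 11 had the same direction in CPM, *Sec61alpha* over *Sec61beta* had the opposite one, and *Calr* over *Cnx99A*, *Ost48* over *OstDelta*, *Sec61alpha* over *Sec63* and *Der-1* over *Der-2* had none. With 1 replicate left out, the summed level was 6226 to 6740 TPM, the median member 122 to 137 TPM, and *Xbp1* over *crc* ran from -0.017 (without replicate 1) to 0.29, and *sip3* over *Hrd3* from -0.0045 (without replicate 2) to 0.27. The median of the 32 genes in library 2 stayed above that of all detected genes under each alternative, from 0.11 against -0.20 without replicate 1 to 0.38 against -0.003 with the length trend removed. With DESeq2 size factors, chosen for this value after seeing the data, it was 0.32 against 0.018. Without replicate 2 this contrast has no value. The order lowest in library 1 and highest in library 2 was shown by 15 to 18 of the 32 genes under TMM, DESeq2, mitochondrial and length settings, against 17.5% to 24.5% of detected genes.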

Other observations

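Genes of other compartments were measured in the same libraries. The 5 chaperones of mitochondria had a median of 43.2 TPM, led by *Hsp60A* at 76.7 ± 12.9 and *Hsc70-5* at 73.4 ± 16.6 TPM (SD, n = 3 libraries), and all 5 were lowest in library 2, as were 48.4% of detected genes. *Hsc70-5*, the mitochondrial Hsp70, was thus far below *Hsc70-3* in every library, with 85.2, 54.5 and 80.7 TPM. The 14 coat and cargo genes of transport between the ER and the Golgi, COPII and COPI together, had a median of 81.7 TPM. They were led by *Sar1*, the GTPase that starts a COPII coat, at 154 ± 2.32 TPM and *zetaCOP*, of the COPI coat, at 133 ± 34.1 TPM (SD, n = 3). Of these 14, 12 were highest in library 3 and 8 were lowest in library 2, where 52.3% and 48.4% of detected genes were. Their median length was 3066 bases, against 2163 bases for the 32 ER genes. The 10 cytosolic chaperones had a median of 196 TPM, led by *Hsc70-4* and *Hsp83*.

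Further genes from the signalling list and the list of other ER folding genes were named after their values were seen. *RtcB*, the ligase that joins the exons of *Xbp1* mRNA after *Ire1* cuts it, was at 61.2, 84.8 and 92.3 TPM in libraries 1, 2 and 3. *PPP1R15*, the phosphatase subunit that reverses the action of *PEK*, was at 58, 56.4 and 64.6 TPM, above *PEK* itself in every library. That order depended on the length correction, as *PPP1R15* had fewer counts than *PEK* in libraries 1 (595 against 692) and 3 (658 against 741). *S1P* and *S2P*, whose mammalian counterparts cleave ATF6, were at 3.74 ± 0.25 and 17.8 ± 2.16 TPM (SD, n = 3). *CrebA*, which activates secretory pathway genes in the fly salivary gland, was at 38.2, 14.4 and 22.3 TPM. It was lowest in library 2, but no longer so with the trend on length removed, where its log2 ratio to the other libraries was -0.29 against -1.07 without. *BI-1*, an ER membrane protein that limits *Ire1* signalling in mammals, was at 408, 516 and 402 TPM. *boca*, an ER chaperone for receptors of the LDL receptor family, was at 101, 164 and 136 TPM, with library 1 lowest and library 2 highest.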
